A study of Mus musculus with 9 samples.

Results

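The 30 genes described here are enzymes, regulators and carriers of cholesterol and fatty acid synthesis. They were chosen by gene symbol: 18 enzymes on the route from acetyl-CoA to cholesterol, 4 regulators of the pathway, 3 genes of sterol transport and storage, and 5 enzymes of fatty acid synthesis. Each symbol was matched through GENCODE M21 gene names to 1 Ensembl gene of the deposited table, so that 30 of its 54232 genes are members, and all 30 had enough counts to be tested.

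Polyadenylated RNA was measured in wild-type mouse embryonic stem cells, cells that can form every tissue of the embryo, during differentiation as embryoid bodies, which are floating aggregates in which several embryonic lineages arise side by side. There are 9 libraries, 3 in each of the groups labelled EBD2, EBD5 and EBD6; no deletion, transgene or drug is named for any of them, and the labels do not say what the numbers in the group names stand for. In 2 cases a pair of libraries of the same group differed by no more than sampling noise (EBD2 replicates 1 and 2, EBD6 replicates 2 and 3), and each pair was counted as 1 sample, so EBD2 has n = 2, EBD5 n = 3 and EBD6 n = 2. The labels do not say that replicates were separate cultures, so a p-value here reflects sample-to-sample spread that could be technical.

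The libraries held between 5454268 and 11704761 counts. The EBD5 libraries stood apart in RNA composition: nuclear ribosomal RNA made up 0.726% to 0.811% of their counts, against 0.0165% to 0.0247% in the other libraries, and processed pseudogenes 0.986% to 0.997%, against 0.150% to 0.280%. Markers of the pluripotent state, 8 genes including Pou5f1 and Nanog, were detected in every group, with summed levels of 1692 to 1901 counts per 1000000 (CPM) in EBD2, 1231 to 1353 CPM in EBD5 and 1091 to 1254 CPM in EBD6. Single markers did not all follow the sum: Nanog was at 178 to 195 CPM in EBD2 and 229 to 239 CPM in EBD5. By edgeR (adjusted p under 0.05), EBD5 had 2 of the 8 above EBD2 and 3 below, and EBD6 had 1 above and 4 below. Of all genes tested, 34.9% passed upward and 35.1% downward for EBD5, and 33.8% and 32.3% for EBD6. Visceral and primitive endoderm is the extraembryonic tissue that forms the outer layer of an embryoid body. By the same test, 13 of its 13 markers were higher in EBD5 and 13 in EBD6 than in EBD2, against 34.9% and 33.8% of all genes. Their summed level was 43.3 to 44.0 CPM in EBD2, 2752 to 2831 CPM in EBD5 and 1841 to 1886 CPM in EBD6, and in EBD2 the marker Apoa4 had no count. The part of the RNA composition and of the endoderm in the results was not tested, and in bulk RNA fewer cells of a type and less RNA per cell cannot be told apart.

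Cholesterol is built from acetyl-CoA. The mevalonate arm makes the isoprenoid building blocks, which are joined to squalene, closed to the ring system of lanosterol and trimmed stepwise to cholesterol. The sterol regulatory element-binding proteins (SREBPs) are transcription factors that sit in the endoplasmic reticulum membrane bound to their escort, the product of Scap. When membrane sterol is low they are carried to the Golgi, cut free, and switch on genes of sterol and fatty acid synthesis; when it is high, the Insig proteins hold them back. The product of Srebf2 is best known for driving cholesterol synthesis, and that of Srebf1 for fatty acid synthesis. Surplus sterol activates the liver X receptors, which raise genes such as Abca1 for cholesterol export, and is esterified for storage or for lipoproteins. Visceral endoderm is known to secrete lipoproteins to the embryo.

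Between EBD2 and EBD5 the members moved in both directions. Genes of sterol transport and storage were higher in EBD5, with Soat2 10.5-fold and Stard4 2.60-fold up, and so were the enzymes Idi1, Sc5d, Acat2 and Scd1. Fasn, Mvd, Lss and Srebf1 were among those lower in EBD5. By edgeR's quasi-likelihood test with Benjamini-Hochberg adjustment over all 16168 genes tested (adjusted p under 0.05), EBD5 had 8 of 30 members (26.7%) above EBD2 and 14 (46.7%) below it. Over all tested genes 34.9% were higher and 35.1% lower. The libraries of the groups did not overlap for 10 members in the upward and 14 in the downward direction, against 39.0% and 38.6% of all genes. The median log2 fold change was -0.04 over the members and -0.01 over all genes tested. With offsets for GC content and exonic length, 8 members were higher and 9 lower, against 33.7% and 33.9% of all genes, so that the larger count of lower members depended on this setting.

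In EBD6, 10 of the 18 sterol enzymes (55.6%) were lower than in EBD5 and 3 (16.7%) higher, against 33.3% and 36.9% of all genes. Among all members, Idi1 was 5.68-fold, Scd1 2.42-fold, Insig1 2.09-fold and Stard4 1.86-fold lower, while Srebf1 was 2.63-fold and Scap 2.24-fold higher. With the GC and length offsets these last changes were smaller, at log2 0.37 for Srebf1 and 0.52 for Scap. In all, 8 members (26.7%) were higher and 15 of 30 lower in EBD6 than in EBD5, against 36.9% and 33.3% of all genes tested. Libraries did not overlap for 8 members upward and 17 downward, against 39.1% and 37.0% of all genes. The members had a median log2 fold change of -0.26, and all genes one of 0.04. Under the GC and length offsets 4 members were higher and 17 lower, against 31.4% and 30.8% of all genes.

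Set directly against EBD2, EBD6 had 7 members higher (23.3%) and 18 of 30 lower, where 33.8% and 32.3% of all genes tested were higher and lower. Libraries did not overlap for 7 members upward and 19 downward, against 37.9% and 36.3% of all genes. The median log2 fold change was -0.34 over the members and 0.01 over all genes. The offsets left 5 members higher and 19 lower, against 32.8% and 34.0% of all genes. All 5 fatty acid enzymes and all 3 enzymes from squalene formation to lanosterol were among the lower ones, and all 3 genes of transport and storage were higher. Fitted without the EBD5 libraries, which stood apart, EBD6 had 6 members above and 18 below EBD2. The 3 comparisons share their samples and are not independent of each other. Tested against a fold of 1.5, 3 members were higher and 4 lower in EBD6 than in EBD2. For this test and for the fit without EBD5, the shares of all genes were not counted. These counts therefore cannot be set against all genes.

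**Figure D1:**
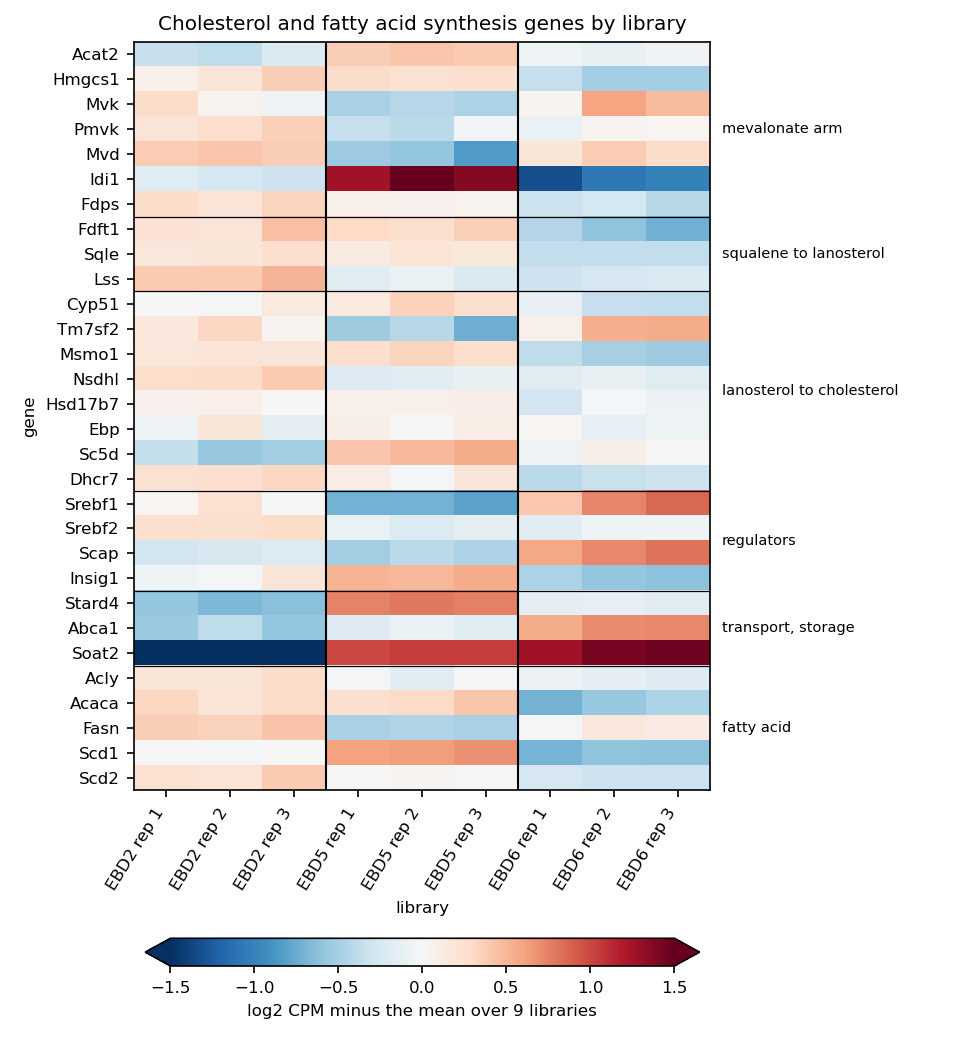
Level of each of the 30 genes (rows, ordered by role) in each of the 9 libraries (columns), as log2 CPM minus the gene's mean over the 9 libraries; the colour scale ends at 1.5 in either direction. Within a group the libraries resemble each other, and Mvd, Idi1, Insig1, Srebf1, Scap, Stard4, Scd1, Abca1 and Soat2 have a fitted log2 difference of over 1 between some pair of groups.

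**Figure D2:**
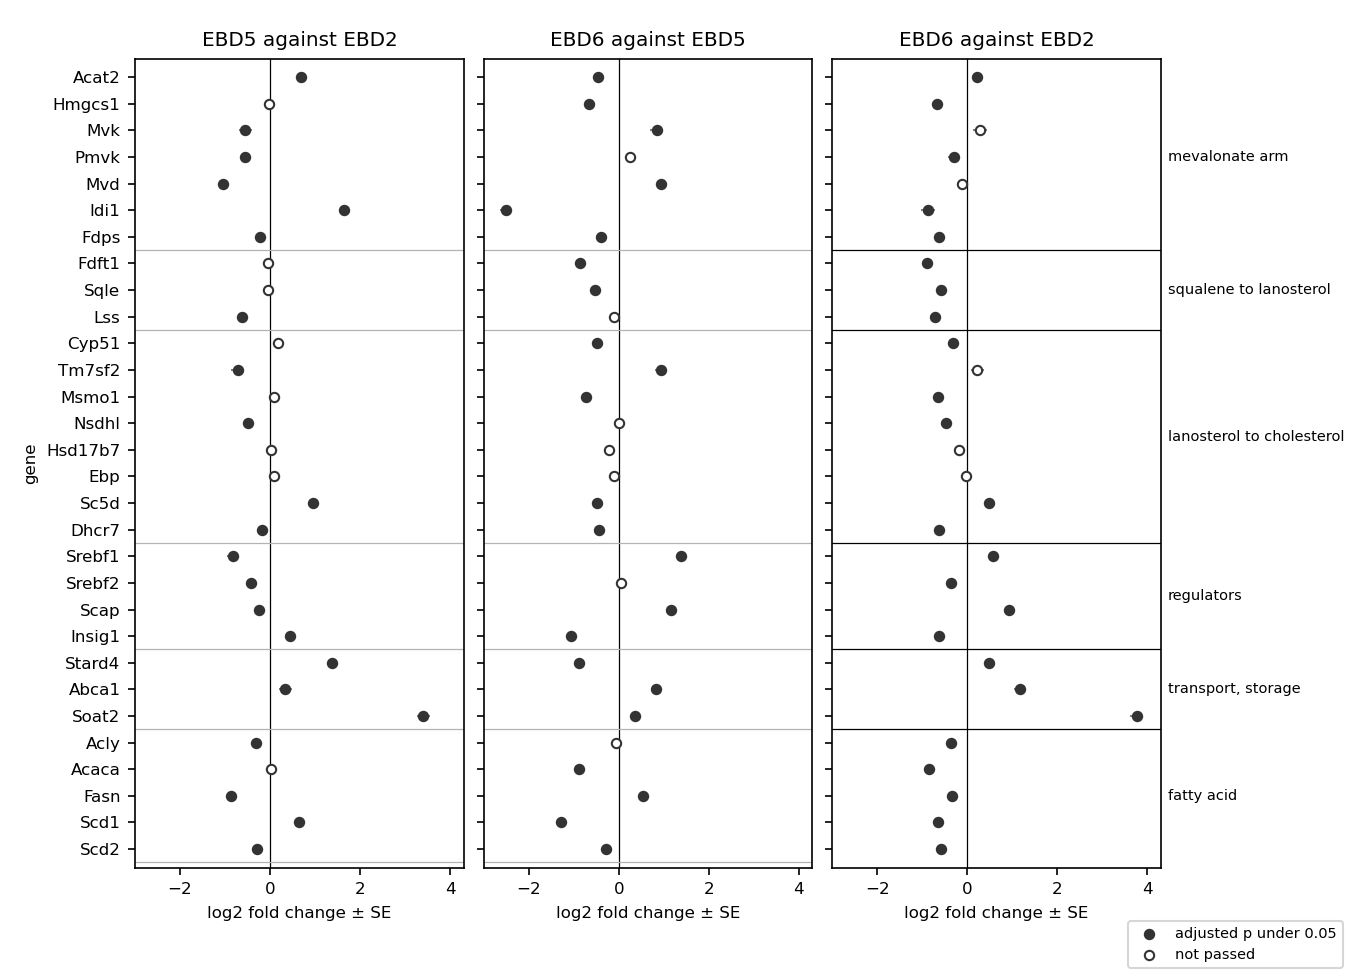
Log2 fold change (edgeR, bars show SE) of each gene in the 3 comparisons, filled where the adjusted p was under 0.05 and open where it was not. In EBD6 against EBD2, 18 of 30 genes lie to the left at an adjusted p under 0.05 and 7 to the right.

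Summed over the members, the level was 4013 ± 184 CPM (SD, n = 2) in EBD2, 3809 ± 25.0 CPM (n = 3) in EBD5 and 3132 ± 44.9 CPM (n = 2) in EBD6. The 3 libraries of EBD6, at 3101 to 3182 CPM, lay below each of the others, whose lowest was at 3782 CPM. For the 18 sterol enzymes alone the sums were 1654 to 1789 CPM in EBD2 and 1680 to 1721 CPM in EBD5, which overlap, and 1243 to 1272 CPM in EBD6. The summed fatty acid enzymes were lower at each step of this order, from 1593 to 1722 CPM in EBD2 through 1342 to 1370 CPM in EBD5 to 1182 to 1225 CPM in EBD6, without overlap. Not every enzyme followed the sum: between EBD2 and EBD5 Fasn, Scd2 and Acly were lower, Scd1 was higher and Acaca did not pass. None of the sums is corrected for GC content. Transport and storage genes followed another order, with 112 to 116 CPM in EBD2, 305 to 315 CPM in EBD5 and 201 to 208 CPM in EBD6.

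Some of the members share short motifs upstream of their start. SREBPs bind the sterol regulatory element, often beside the CCAAT box of the factor NF-Y and the GC box of Sp1. RefSeq promoters (GRCm38.p6, the same assembly as mm10) were at hand for 23 of the 30 members. Their 250 bases before the start were searched on both strands. Fdft1, Fdps, Scd1, Scd2, Soat2, Sqle and Stard4 had no promoter at hand and were not searched. CCAAT was present in 18 of the 23 (78.3%), against 4574 of 11230 tested genes with a promoter in the table (40.7%) and 33.8% of all 32851 promoters. The GC box GGGCGG was in 20 of the 23 (87.0%), against 63.5% of tested genes, and the E-box CACGTG in 6 (26.1%), against 9.77%. The sterol regulatory element in the form TCACNCCAC was in 1 (4.35%), against 1.28%. Its shorter form CACNCCAC, which every match of the longer form also holds, was in 3 (13.0%), against 6.69%. The motif of the liver X receptors, AGGTCA repeated after a gap of 4 bases, was in none of the 23 windows. This exact form was in 0 of 11230 tested genes and 5 of 32851 promoters, too rare for its absence to be informative. Variant forms of it were not searched. These matches are descriptions of the letters in the window, not binding sites.

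Stretches that overlap no exon of GENCODE M21 are shown for 7 members, to set 6 genes with CCAAT beside 1 that has neither CCAAT nor TCACNCCAC. All are written 5′ to 3′ on the gene's own strand in lower case, with TCACNCCAC and CCAAT in capitals; ATTGG is CCAAT read on the other strand. Hmgcs1 holds the 1 match of the longer element among the members searched. Mvk holds 5 CCAAT boxes, and Mvd, Lss, Insig1 and Fasn hold between 1 and 3. In Fasn the letters CCAATTGG are a pair of overlapping matches, 1 on each strand. Abca1, the export gene, has neither of these in its stretch, but holds an E-box and a GC box there.
Hmgcs1, chr13:119690171-119690350, plus strand: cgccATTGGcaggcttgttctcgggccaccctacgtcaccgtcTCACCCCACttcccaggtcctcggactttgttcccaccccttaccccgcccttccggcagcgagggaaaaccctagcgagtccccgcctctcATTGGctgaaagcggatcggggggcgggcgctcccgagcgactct
Mvk, chr5:114444089-114444268, plus strand: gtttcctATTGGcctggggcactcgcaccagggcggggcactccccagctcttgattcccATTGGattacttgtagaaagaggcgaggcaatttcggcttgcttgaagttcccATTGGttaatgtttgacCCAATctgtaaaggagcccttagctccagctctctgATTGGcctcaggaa
Mvd, chr8:122443423-122443522, minus strand: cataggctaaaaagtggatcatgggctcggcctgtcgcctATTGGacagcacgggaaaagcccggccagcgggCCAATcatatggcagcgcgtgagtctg
Lss, chr10:76531455-76531586, plus strand: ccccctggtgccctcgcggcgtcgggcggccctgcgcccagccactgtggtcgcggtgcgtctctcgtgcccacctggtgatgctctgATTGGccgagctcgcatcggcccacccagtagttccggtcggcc
Insig1, chr5:28071172-28071359, plus strand: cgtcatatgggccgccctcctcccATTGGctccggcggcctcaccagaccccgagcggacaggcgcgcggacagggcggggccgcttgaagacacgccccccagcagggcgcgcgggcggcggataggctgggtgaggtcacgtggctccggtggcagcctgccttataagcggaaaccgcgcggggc
Fasn, chr11:120824548-120824647, minus strand: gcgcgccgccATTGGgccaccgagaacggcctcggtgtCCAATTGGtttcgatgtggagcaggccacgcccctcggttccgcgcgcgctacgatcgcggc
Abca1, chr4:53159896-53160045, minus strand: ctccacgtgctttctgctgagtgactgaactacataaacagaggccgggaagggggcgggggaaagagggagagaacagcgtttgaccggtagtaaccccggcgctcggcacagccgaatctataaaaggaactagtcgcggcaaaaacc

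The 18 members with CCAAT in the window did not move as a block. In EBD5 against EBD2, 3 were up and 10 down; in EBD6 against EBD5, 5 and 7; and in EBD6 against EBD2, 2 and 11. The shares up and down over all genes tested were 34.9% and 35.1%, 36.9% and 33.3%, and 33.8% and 32.3%. Of the 5 members without it (Abca1, Acaca, Acat2, Acly and Scap) 2 were higher and 2 lower, 2 and 2, and 3 and 2 in the same comparisons. With 5 genes on 1 side these counts are too few to set the sets apart, and no test was made.

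In the mevalonate arm, Idi1 (ENSMUSG00000058258, chromosome 13, 8885501 to 8892451, plus strand, mm10) moved most. Its enzyme interconverts the pair of isoprenoid building blocks. Idi1 was at 14.5, 13.8 and 13.3 CPM in EBD2, 39.6, 47.7 and 43.0 CPM in EBD5, and 6.60, 7.83 and 8.16 CPM in EBD6. The 3 groups did not overlap, with EBD5 highest and EBD6 lowest. It was 3.11-fold higher in EBD5 than in EBD2 (log2 1.64 ± 0.12 SE, edgeR adjusted p = 6.65e-07) and 5.68-fold lower in EBD6 than in EBD5 (log2 -2.50 ± 0.13, edgeR adjusted p = 5.82e-08). Both changes kept their direction under the GC and length offsets, at 1.43 and -2.12. Its counting is less certain, since 25.3% of the 50-base stretches of Idi1 also occur in other genes, mainly the processed pseudogene Gm13502, which had 92 counts in all against 1189 for Idi1.

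Hmgcs1 (ENSMUSG00000093930, chromosome 13, 119690379 to 119708260, plus strand), whose enzyme makes HMG-CoA and whose upstream stretch holds the sterol regulatory element, was at 308, 331 and 378 CPM in EBD2 and 353, 343 and 345 CPM in EBD5. In EBD6 it was at 230, 205 and 206 CPM, below every library of the other groups. It was 1.59-fold lower in EBD6 than in EBD5 (log2 -0.67 ± 0.08, edgeR adjusted p = 2.65e-05), while EBD5 and EBD2 overlapped (log2 -0.02 ± 0.08, edgeR adjusted p = 0.873). With the GC and length offsets the first difference shrank to -0.31 (edgeR adjusted p = 0.00371). The offsets took EBD5 against EBD2 to -0.21, which passed (edgeR adjusted p = 0.0215). Fdps, the synthase of farnesyl diphosphate, stood at 73.6 to 80.3 CPM, 66.4 to 67.6 CPM and 47.9 to 53.1 CPM in EBD2, EBD5 and EBD6, and was lower at each step (log2 -0.22 ± 0.07 and -0.39 ± 0.07), though the smaller difference, between EBD5 and EBD2, was lost without EBD2 replicate 3. In Acat2, which joins acetyl-CoA units, EBD5 was the high group at 82.0 to 85.0 CPM, against 48.7 to 54.6 CPM in EBD2 and 58.9 to 61.1 CPM in EBD6. Of the 50-base stretches of Acat2, 39.1% also occur in other genes, mainly Acat3, so its counts are less certain.

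The 3 enzymes that turn mevalonate into isopentenyl diphosphate were lower in EBD5 than in EBD2. Mvd, which performs the last of these steps, was at 69.1, 70.6 and 68.4 CPM in EBD2, 36.4, 35.1 and 29.4 CPM in EBD5, and 60.3, 69.0 and 64.2 CPM in EBD6. EBD5 was lower than each library of the other groups. The difference was 2.07-fold from EBD2 (log2 -1.05 ± 0.09, edgeR adjusted p = 2.63e-06) and 1.91-fold from EBD6 (log2 0.93 ± 0.09, edgeR adjusted p = 5.46e-06). Mvk, the mevalonate kinase, had 17.0 to 17.6 CPM in EBD5, against 22.8 to 28.7 CPM in EBD2 and 24.4 to 35.8 CPM in EBD6. Pmvk, which adds the next phosphate, had 25.1 to 32.3 CPM in EBD5, against 38.0 to 42.5 CPM in EBD2 and 31.0 to 34.1 CPM in EBD6, where it overlapped EBD5 (log2 0.26 ± 0.11 in EBD6 against EBD5, edgeR adjusted p = 0.0646; -0.24 with the offsets, so no direction is given). These are GC-rich transcripts, at 59.0% for Mvd, 56.3% for Mvk and 57.0% for Pmvk. With the offsets Mvd kept a smaller difference from EBD2 (log2 -0.42, edgeR adjusted p = 0.001), and the differences of Mvk and Pmvk between EBD5 and EBD2 no longer passed (log2 -0.11 with edgeR adjusted p = 0.504 and -0.22 with edgeR adjusted p = 0.0924). From EBD5 to EBD6 neither Mvd (0.14, edgeR adjusted p = 0.162) nor Mvk (0.22, edgeR adjusted p = 0.164) passed with the offsets.

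The enzymes around squalene were lower in EBD6 than in EBD2. Fdft1, the squalene synthase, was at 135, 133 and 159 CPM in EBD2, 142, 137 and 148 CPM in EBD5, and 85.2, 76.5 and 70.2 CPM in EBD6. EBD2 and EBD5 overlapped and EBD6 lay below both, 1.81-fold lower than EBD5 (log2 -0.86 ± 0.09, edgeR adjusted p = 7.28e-06). Of the exons of Fdft1, 18.3% overlap those of Ctsb on the other strand, and since strand use in counting is not given, reads of the pair could be split between them. Sqle, the squalene epoxidase, repeated this pattern with 149 to 157 CPM, 146 to 153 CPM and 103 CPM in each of the EBD6 libraries (log2 -0.52 ± 0.06 in EBD6 against EBD5, edgeR adjusted p = 9.36e-06). Lss, which closes the ring to lanosterol, was already lower in EBD5: it was at 142 to 154 CPM in EBD2, 92.7 to 101 CPM in EBD5 and 87.0 to 92.5 CPM in EBD6. Its difference between EBD5 and EBD2 was 1.54-fold (log2 -0.62 ± 0.06, edgeR adjusted p = 7.64e-06), and that between EBD6 and EBD5 did not pass (log2 -0.10 ± 0.07, edgeR adjusted p = 0.213).

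Past lanosterol, the 8 enzymes divided. Cyp51, the lanosterol demethylase, and Msmo1, which begins the removal of the next methyl groups, were lower in EBD6 than in EBD5. Between EBD5 and EBD2 Msmo1 did not pass (log2 0.09 ± 0.06, edgeR adjusted p = 0.197), nor did Cyp51 (log2 0.18 ± 0.08, edgeR adjusted p = 0.0838), although Cyp51 passed in 6 of 21 alternatives, among them the fit without EBD6 replicate 1. Msmo1 was at 173, 176 and 175 CPM in EBD2, 184, 194 and 185 CPM in EBD5, and 118, 109 and 106 CPM in EBD6, a 1.66-fold drop from EBD5 (log2 -0.73 ± 0.06, edgeR adjusted p = 1.65e-06). Cyp51 had 159 to 180 CPM, 180 to 206 CPM and 126 to 149 CPM (log2 -0.49 ± 0.08 in EBD6 against EBD5, edgeR adjusted p = 3.33e-04). Dhcr7, which makes cholesterol from its last precursor on one branch, was at 84.8 to 89.7 CPM in EBD2, 71.8 to 82.0 CPM in EBD5 and 54.7 to 58.7 CPM in EBD6. Its small difference between EBD5 and EBD2 (log2 -0.19 ± 0.07, edgeR adjusted p = 0.0403) was lost in 12 of 21 alternatives, among them the fits without EBD2 replicate 1, 2 or 3 and without EBD5 replicate 1 or 2.

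Nsdhl, which acts with Msmo1 on the same methyl groups, was lower in EBD5 (39.1 to 41.5 CPM) than in EBD2 (53.9 to 58.6 CPM) and in EBD6 overlapped EBD5 (39.4 to 41.5 CPM). Sc5d, a desaturase of the last steps, went the other way from most: it was at 52.9, 45.8 and 47.2 CPM in EBD2, 90.4, 94.9 and 100 CPM in EBD5, and 64.7, 72.0 and 67.9 CPM in EBD6. The groups did not overlap, and EBD5 was 1.95-fold above EBD2 (log2 0.96 ± 0.08, edgeR adjusted p = 8.87e-07). The lower level in EBD6 than in EBD5 did not pass with the offsets (log2 -0.15, edgeR adjusted p = 0.0735). Tm7sf2, a sterol reductase, had its lowest values in EBD5, at 23.4 to 29.0 CPM, against 40.0 to 47.9 CPM in EBD2 and 40.8 to 57.0 CPM in EBD6; 12.1% of its exons overlap those of Vps51 on the same strand. Hsd17b7 (29.2 to 38.4 CPM over the 9 libraries) and Ebp (33.1 to 41.1 CPM) passed in no comparison of the main test. In EBD6 against EBD5, Hsd17b7 (log2 -0.22 ± 0.09, edgeR adjusted p = 0.0525) passed, as lower, in 7 of 21 alternatives. With the offsets it was at -0.02 (edgeR adjusted p = 0.855). Ebp passed there with the offsets only (log2 -0.21, edgeR adjusted p = 0.0376).

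Among the regulators, Insig1 and Srebf1 moved in opposite directions. Insig1 (ENSMUSG00000045294, chromosome 5, 28071363 to 28078662, plus strand), the brake on SREBP transport and itself a known SREBP target, was at 98.4, 102 and 117 CPM in EBD2, 147, 145 and 151 CPM in EBD5, and 74.2, 68.6 and 67.0 CPM in EBD6. The groups did not overlap. EBD5 was 1.36-fold above EBD2 (log2 0.45 ± 0.07, edgeR adjusted p = 2.59e-04) and EBD6 was 2.09-fold below EBD5 (log2 -1.06 ± 0.08, edgeR adjusted p = 4.93e-07). Srebf1 (ENSMUSG00000020538, chromosome 11, 60199089 to 60222581, minus strand) was at 53.4, 61.2 and 52.0 CPM in EBD2, 32.0, 31.9 and 29.9 CPM in EBD5, and 69.0, 86.7 and 95.0 CPM in EBD6. EBD5 was lowest and EBD6 highest, without overlap, and the change between them was 2.63-fold (log2 1.39 ± 0.12, edgeR adjusted p = 1.42e-06). Its transcript has 58.4% GC, and the offsets left 0.37 (edgeR adjusted p = 9.42e-04) for this change and 0.12 (edgeR adjusted p = 0.131) for EBD6 against EBD2.

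Scap, the SREBP escort, was at 42.9, 44.4 and 45.4 CPM in EBD2, 36.5, 39.4 and 38.0 CPM in EBD5, and 77.9, 86.1 and 92.3 CPM in EBD6. The EBD6 libraries lay above all others, 1.90-fold over EBD2 (log2 0.93 ± 0.09, edgeR adjusted p = 3.99e-06; 0.86 with the offsets). Between EBD5 and EBD2 the direction of Scap turned with the offsets, from -0.24 (edgeR adjusted p = 0.0335) to 0.34 (edgeR adjusted p = 0.00392). It was also lost without EBD2 replicate 2 or 3 and without EBD5 replicate 1 or 3. Srebf2 was at 297 to 304 CPM in EBD2, 218 to 235 CPM in EBD5 and 224 to 242 CPM in EBD6. In EBD6 it was lower than in EBD2 under both settings (log2 -0.36 ± 0.07, edgeR adjusted p = 7.28e-04; -0.43 with the offsets). In EBD5 against EBD2 the offsets took it from -0.42 to 0.15 (edgeR adjusted p = 0.0656), so no direction is given for that comparison.

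Within each library, the level of Srebf1 per exonic length was 0.218 to 0.262 of that of Srebf2 in EBD2, 0.168 to 0.186 in EBD5 and 0.393 to 0.500 in EBD6. These ratios carry no correction for GC content. Insig1 was 4.09 to 4.60 times the level of its relative Insig2 per length in EBD2, 4.13 to 4.66 times in EBD5 and 1.97 to 2.21 times in EBD6. So the ratios of EBD6 lay apart from those of the other groups in both pairs.

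The genes of sterol transport and storage gave the largest change of the set. Soat2 (ENSMUSG00000023045, chromosome 15, 102150526 to 102163469, plus strand) makes cholesteryl esters and is best known from liver and intestine, where the esters enter lipoproteins. It was at 2.39, 3.13 and 3.20 CPM in EBD2, 30.5, 31.4 and 31.5 CPM in EBD5, and 36.6, 41.2 and 42.2 CPM in EBD6, from 51, 515 and 1179 counts per group. Every library of EBD5 and EBD6 lay above those of EBD2. The difference was 10.5-fold in EBD5 (log2 3.40 ± 0.15, edgeR adjusted p = 1.07e-08) and 13.5-fold in EBD6 (log2 3.76 ± 0.15, edgeR adjusted p = 4.6e-09). Between EBD6 and EBD5 the offsets turned its direction, from 0.36 to -0.10 (edgeR adjusted p = 0.41), so none is given. The endoderm markers had their low group in EBD2 as well, as given above. So did the summed markers of mesoderm and endothelium and those of trophoblast. A link of Soat2 to any of these was not tested.

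Stard4 (ENSMUSG00000024378), a soluble carrier of sterol between membranes, was at 104, 97.6 and 101 CPM in EBD2, 261, 270 and 263 CPM in EBD5, and 142, 143 and 140 CPM in EBD6. The order EBD2, EBD6, EBD5 held without overlap. The rise was 2.60-fold in EBD5 (log2 1.38 ± 0.06, edgeR adjusted p = 7.8e-09), and 1.40-fold remained in EBD6 (log2 0.49 ± 0.06, edgeR adjusted p = 3.6e-05). Abca1, the cholesterol exporter, was at 10.2 ± 0.542 CPM (SD, n = 2) in EBD2, 12.8, 13.6 and 12.9 CPM in EBD5, and 21.6, 24.0 and 24.2 CPM in EBD6. EBD6 was 2.25-fold above EBD2 (log2 1.17 ± 0.13, edgeR adjusted p = 1.41e-05). The step from EBD2 to EBD5 (log2 0.34 ± 0.14, edgeR adjusted p = 0.042) was lost in 11 of 21 alternatives, among them the fits without EBD2 replicate 1 or 3 and without each EBD5 replicate.

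**Figure D3:**
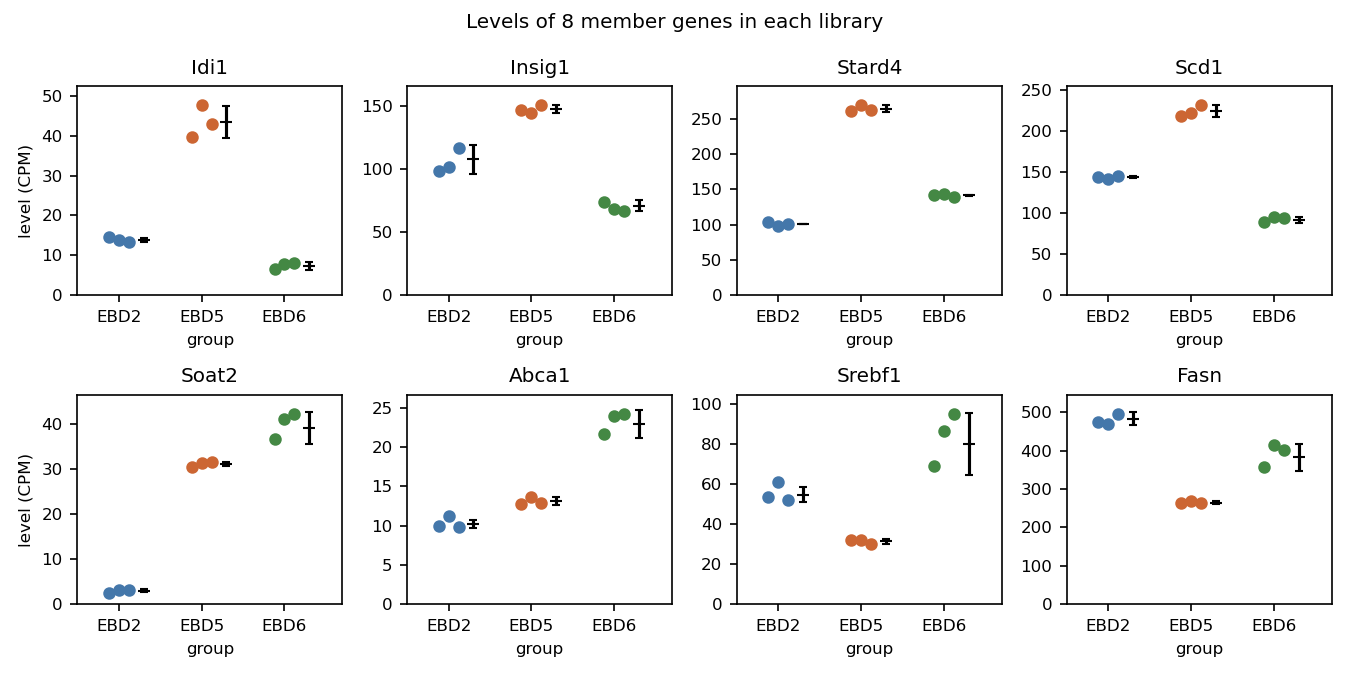
Level in CPM (vertical axis from 0) of 8 of the genes in each library (coloured points) of EBD2, EBD5 and EBD6, with the mean and SD over samples in black (n = 2, 3 and 2). Idi1, Insig1, Stard4 and Scd1 are highest in EBD5, Soat2, Abca1 and Srebf1 in EBD6, and Fasn in EBD2.

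In fatty acid synthesis, all 5 enzymes were lower in EBD6 than in EBD2, but their EBD5 values differed. Fasn (ENSMUSG00000025153, chromosome 11, 120805846 to 120824547, minus strand), the synthase that builds palmitate, was at 476, 469 and 496 CPM in EBD2, 263, 270 and 263 CPM in EBD5, and 359, 414 and 401 CPM in EBD6. EBD5 was the low group, 1.84-fold below EBD2 (log2 -0.88 ± 0.07, edgeR adjusted p = 1.02e-06; -0.31 with the offsets). Its higher level in EBD6 than in EBD5 (log2 0.54 ± 0.07, edgeR adjusted p = 3.84e-05) became -0.09 (edgeR adjusted p = 0.32) with the offsets for this transcript of 57.9% GC. Acaca, whose enzyme makes malonyl-CoA, was at 94.6, 86.2 and 92.0 CPM in EBD2, 89.1, 92.5 and 101 CPM in EBD5, and 46.2, 51.0 and 54.3 CPM in EBD6. EBD2 and EBD5 overlapped, and EBD6 was 1.86-fold below EBD5 (log2 -0.89 ± 0.08, edgeR adjusted p = 2.39e-06). Of the 50-base stretches of Acaca, 30.4% occur in other genes, mainly the processed pseudogene Gm5182, with 294 counts over the 9 libraries.

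Scd1 (ENSMUSG00000037071, chromosome 19, 44394455 to 44407879, minus strand) and Scd2 (ENSMUSG00000025203, chromosome 19, 44293674 to 44306864, plus strand) are neighbouring genes for desaturases that make monounsaturated fatty acids. Scd1 was at 144, 142 and 145 CPM in EBD2, 219, 222 and 232 CPM in EBD5, and 89.0, 94.9 and 93.7 CPM in EBD6. EBD5 was highest and EBD6 lowest without overlap, with a 1.55-fold rise from EBD2 (log2 0.63 ± 0.06, edgeR adjusted p = 3.5e-06) and a 2.42-fold drop to EBD6 (log2 -1.28 ± 0.06, edgeR adjusted p = 3.68e-08). Scd2 was at 509, 500 and 567 CPM in EBD2, 436, 446 and 434 CPM in EBD5, and 363, 350 and 348 CPM in EBD6, lower at each step by log2 -0.30 ± 0.07 (edgeR adjusted p = 0.00244) and -0.29 ± 0.07 (edgeR adjusted p = 0.0029). Per exonic length, Scd1 made up 0.286 to 0.317 of the level of Scd2 in EBD2, 0.557 to 0.598 in EBD5 and 0.274 to 0.303 in EBD6. EBD5 thus held the high ratios, and EBD2 and EBD6 overlapped. Acly, which supplies cytosolic acetyl-CoA to both pathways, was at 395 to 422 CPM in EBD2, 311 to 340 CPM in EBD5 and 303 to 326 CPM in EBD6. It was lower in EBD6 than in EBD2 (log2 -0.37 ± 0.07, edgeR adjusted p = 0.0012). Its lower level in EBD5 than in EBD2 (log2 -0.32 ± 0.07, edgeR adjusted p = 0.00167) did not pass with the offsets (-0.18, edgeR adjusted p = 0.0767).

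Levels of different genes were compared as TPM, counts scaled by exonic length to a fixed total. This scale shifts the median gene by log2 -0.25 between EBD2 and EBD5 and by 0.29 between EBD5 and EBD6, so it serves here for the order within a group. Scd2 came first of the 30 in each group, at 430 ± 22.0 TPM (SD, n = 2) in EBD2, 296 ± 5.11 TPM (n = 3) in EBD5 and 289 ± 2.37 TPM (n = 2) in EBD6. Acly and Hmgcs1 took the next places, with 340 ± 4.78 and 333 ± 29.0 TPM in EBD2, a difference within the spread. Fasn ranked 4 in EBD2 and EBD6 and 13 in EBD5. The ranks given here are not corrected for GC content, which is 57.9% in Fasn. At the lower end stood Abca1, at 4.32 ± 0.367 TPM in EBD2 and 4.67 ± 0.173 TPM in EBD5, and Idi1 in EBD6, at 9.28 ± 1.58 TPM, close to Abca1 there at 9.82 ± 1.13 TPM. Soat2 moved from rank 29 in EBD2 to 20 in EBD5 and 16 in EBD6.

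The direction of a member in the EBD5 comparisons went with its base composition. The members' transcripts have between 41.9% and 59.1% GC. Across the 30 genes, which are not independent replicates and share the same libraries, Spearman's rho of GC content with the log2 fold change was -0.63 in EBD5 against EBD2, 0.70 in EBD6 against EBD5 and 0.32 in EBD6 against EBD2. Over 13746 tested protein-coding genes it was -0.37, 0.56 and 0.17, and over the members with the offsets -0.28, 0.31 and 0.13. Of the 8 members with 55% GC or more, 7 were lower in EBD5 than in EBD2, all except Soat2. In EBD6, 6 of these 8 were above EBD5, while 3 were above and 3 below EBD2. Of the 6 with under 45% GC, 3 were above EBD2 in EBD5, and 5 were below EBD5 in EBD6. Against EBD2, EBD6 had 2 of these 6 above and 3 below. Both limits were set after the values were seen. Of all genes tested, whatever their GC content, 34.9% passed upward and 35.1% downward in EBD5 against EBD2. These shares were 36.9% and 33.3% in EBD6 against EBD5, and 33.8% and 32.3% in EBD6 against EBD2.

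**Figure D4:**
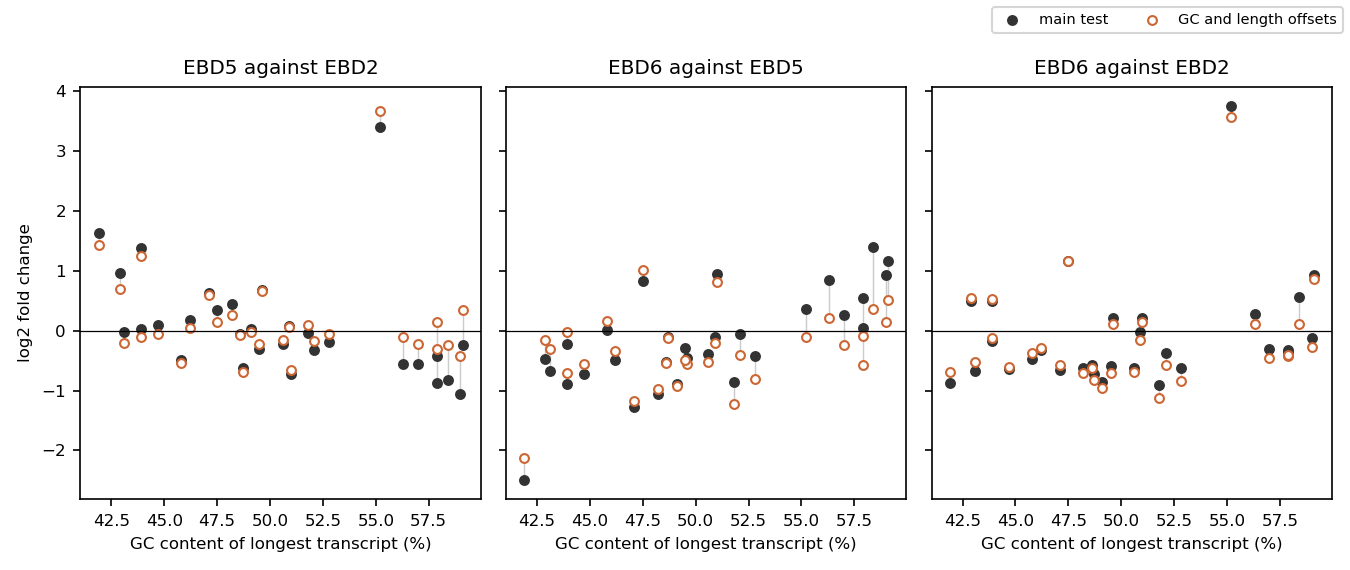
Log2 fold change of each of the 30 genes against the GC content of its longest transcript, from the main edgeR test (filled) and with offsets for GC content and length (open), in the 3 comparisons; grey lines join the 2 values of a gene. The filled points fall with GC content in EBD5 against EBD2 and climb in EBD6 against EBD5, and the open points are flatter; Soat2, at 55.2% GC, lies far above the others in the comparisons with EBD2.

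Further genes of these pathways, from lists that hold no member, gave the context. Their counts stand against 34.9% higher and 35.1% lower of all genes tested in EBD5 against EBD2, 36.9% and 33.3% in EBD6 against EBD5, and 33.8% and 32.3% in EBD6 against EBD2, and their median log2 fold changes against -0.01, 0.04 and 0.01. Of 16 tested genes of sterol regulation and transport, 10 were above and 5 below EBD2 in EBD5, 7 and 5 in EBD6 than in EBD5, and 10 and 4 in EBD6 than in EBD2, with medians of 0.30, 0.09 and 0.42. Soat1, the widely expressed counterpart of Soat2, was at 80.2 to 91.3 CPM in EBD2, 240 to 258 CPM in EBD5 and 246 to 248 CPM in EBD6, a 2.81-fold difference in EBD5 (log2 1.49 ± 0.06, edgeR adjusted p = 9e-09). Per exonic length, Soat2 was 0.132 to 0.159 of Soat1 in EBD2, 0.538 to 0.571 in EBD5 and 0.657 to 0.754 in EBD6, so Soat1 remained the higher of the pair in every library. Mylip, a liver X receptor target that marks lipoprotein receptors for degradation, was 2.82-fold higher in EBD5 than in EBD2 (log2 1.49 ± 0.11, edgeR adjusted p = 6.96e-07) and 2.47-fold higher in EBD6 (log2 1.31 ± 0.12, edgeR adjusted p = 2.66e-06). Abcg1, a sterol exporter and another target of these receptors, was lower than in EBD2 in EBD5 (log2 -0.62 ± 0.13, edgeR adjusted p = 0.0011) and in EBD6 (log2 -0.45 ± 0.13, edgeR adjusted p = 0.00921). Nr1h2, which encodes one of the receptors, was 2.15-fold lower in EBD5 than in EBD2 (log2 -1.10 ± 0.07, edgeR adjusted p = 2.86e-07; -0.42 with the offsets).

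Of 20 tested genes of fatty acid supply, elongation and mitochondrial synthesis, 6 were above and 11 below EBD2 in EBD5, 8 and 6 in EBD6 than in EBD5, and 5 and 10 in EBD6 than in EBD2, with medians of -0.26, -0.19 and -0.24 and the all-gene shares given before. Elovl6, which lengthens palmitate, went from 406 to 445 CPM in EBD2 through 267 to 281 CPM in EBD5 to 171 to 195 CPM in EBD6, 2.32-fold lower in EBD6 than in EBD2 (log2 -1.22 ± 0.08, edgeR adjusted p = 1.67e-07). Acacb, the mitochondrial counterpart of Acaca, was 2.54-fold lower in EBD6 than in EBD2 (log2 -1.34 ± 0.12, edgeR adjusted p = 2.6e-06), while Elovl1, an elongase of very long chains, was 2.57-fold higher (log2 1.36 ± 0.09, edgeR adjusted p = 1.79e-07). The 10 genes of the isoprenoid branch, which divert farnesyl diphosphate to prenylation, ubiquinone and dolichol, had 3 above and 3 below EBD2 in EBD5, 3 and 4 in EBD6 than in EBD5, and 2 and 3 in EBD6 than in EBD2, with medians of 0.01, -0.01 and -0.06. Of 9 genes of fatty acid oxidation, 3 were higher and 3 lower, 4 and 2, and 2 and 1 in the same comparisons, with medians of -0.08, 0.14 and 0.11.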

How the data were processed

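Poly-A RNA of 9 libraries was measured. The authors deposited expected counts per Ensembl gene; per the submitters' processing notes, the tools named without roles are RSEM 1.3.30, STAR 2.7.10a, cutadapt 1.18, DESeq2 1.38.3 and edgeR 3.40.2, with build mm10. The sources used here give no annotation release, no strand setting and no instrument per library (HiSeq or NovaSeq, per the labels' protocols). The table has 54232 Ensembl rows and 1 other row (at most 0.0157% of a library), which was left out.

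Expected counts were rounded to whole numbers. By chi-square per gene, EBD2 replicates 1 and 2 (0.95) and EBD6 replicates 2 and 3 (1.01) agree within sampling noise, where other pairs gave 1.21 to 4.31, and were summed as 1 sample each, which left 7 samples and 4 residual degrees of freedom. All 3 groups were fitted together with edgeR 4.0.16 (R 4.3.3; filterByExpr, TMM, glmQLFTest), and p-values were adjusted by the Benjamini-Hochberg method over 16168 genes. The common biological coefficient of variation was 6.7%. CPM used TMM-scaled library sizes, and means ± SD average a near-identical pair as 1. TPM were computed from the rounded counts and exonic lengths of GENCODE M21, which held 54165 of the IDs. Scripts were tested on simulated data.

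All 30 members may be named; from other pathway lists up to 4 genes per list, direction and comparison with the largest change past the threshold, and up to 4 per marker list. The members and lists were chosen with earlier results of these data known, and the promoter motifs after the values were seen. Alternatives were DESeq2 1.42.0, limma-voom 3.58.1, other size factors, filters and sample sets, a fold of 1.5, offsets per sample from 10 bins of GC content and 5 of length, and leaving out each library. Of the marker lists not given elsewhere, summed levels in EBD2, EBD5 and EBD6 were 154 to 163, 77.4 to 84.5 and 189 to 193 CPM for 6 neuroectoderm genes, 4.09 to 5.99, 14.3 to 15.0 and 154 to 170 CPM for 6 of mesoderm and endothelium, 1.71 to 3.46, 9.89 to 12.5 and 61.3 to 64.9 CPM for 4 of trophoblast, and 83.6 to 87.4, 51.5 to 57.9 and 136 to 143 CPM for 5 of fibroblasts. Most of the fibroblast sum is Vim, at 60.4 to 64.1, 36.7 to 44.0 and 92.4 to 99.9 CPM. Of 4 tested fibroblast genes, 3 were higher and 1 lower in EBD6 than in EBD2, against 33.8% and 32.3% of all genes. The lower one was Thy1, with means of 22.7 CPM in EBD2 and 2.79 CPM in EBD6. The part of these lists in the results was not tested.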

Additional observations from a re-analysis of the deposited data

How the results depend on the processing

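Of 126 recomputed counts of members higher or lower, 118 stayed within 1.5 times the reported count. Tested against a fold of 1.5, EBD5 had 4 members above and 3 below EBD2, then 5 and 7 in EBD6 than in EBD5, and 3 and 4 in EBD6 than in EBD2. Shares of all genes were counted only for the main test and the offsets, so counts under other settings stand without them. With GC and length offsets, 9 members were lower in EBD5 than in EBD2, and 4 were higher in EBD6 than in EBD5. The offsets reversed Srebf2 (0.15) and Scap (0.34) in EBD5 against EBD2, and Srebf2 (-0.58), Fasn (-0.09) and Soat2 (-0.10) in EBD6 against EBD5; the cause was not tested.

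Leaving out 1 library at a time gave 7 to 9 members above and 11 to 14 below EBD2 in EBD5, 8 to 9 and 15 to 16 in EBD6 than in EBD5, and 7 to 9 and 16 to 18 in EBD6 than in EBD2. Without EBD2 replicate 3 or EBD6 replicate 1 that group has 1 sample, assumed to vary like the others. Same-numbered libraries did not deviate together (r from -0.08 to 0.05). Because pairs in EBD2 and EBD6 differ by no more than sampling noise, this check cannot exclude pairing, which the labels do not give. A replicate block on 9 separate libraries gave 9 higher and 14 lower, 9 and 16, and 8 and 18, the counts of that fit without the block.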
